A study of Mus musculus with 6106 samples.

Results

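The AP-1 Fos and Jun family was followed as 7 genes (Fos, Fosb, Fosl2, Jun, Junb, Jund and Atf3) of the 23725 in the table, taken as the rows with those symbols in cells with at least 500 unique molecular identifiers (UMIs). The cells were splenic regulatory T cells (Tregs), CD4 T cells that express Foxp3, from male mice aged 10 months, all of the B6 strain with 2 reporter alleles, Nr4a1-Gfp for Nr4a1 and Foxp3-Ires-Thy1.1 for Foxp3. Live cells positive for TCR beta, CD4 and the Thy1.1 reporter were sorted by GFP fluorescence after mechanical dissociation of the spleen. The 3 bins were GFPlow, labelled as 0 to 20 percent of GFP expression, GFPmed, as 40 to 60, and GFPhigh, as 80 to 100. For every bin 1 library was made by inDrops, in which droplets give the transcripts of single cells their barcodes and UMIs, and there were 0 replicates. No test between bins was therefore made. The labels used here do not give the number of mice behind a library.

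AP-1 is a pair of proteins with basic leucine zippers, usually 1 Fos and 1 Jun protein or 2 Jun proteins, that binds DNA and, in T cells, often acts beside NFAT. Fos, Fosb, Jun, Junb and Atf3 are immediate early genes, transcribed soon after T cell receptor (TCR) signals but also after stress and tissue handling, whereas Jund is commonly transcribed at a steady level. Nr4a1, an orphan nuclear receptor gene that TCR engagement also induces early, is the gene behind the sorted reporter.

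Of the 5435 cells used, 1537 were GFPmed, 1775 GFPhigh and the rest GFPlow. The median depth was 1085 UMIs in GFPlow and 1129 in GFPhigh, and GFPmed was deeper, with a median of 750 genes per cell against 622 in GFPhigh. Levels are given in UPM, a gene's UMIs per 1000000 UMIs of the same cells, with no scaling by transcript length. Brackets hold 95% intervals for counting error only. A count of 0 allowed up to 1.23, 1.19 and 1.32 UPM in GFPlow, GFPmed and GFPhigh. All 9 Treg markers were detected in each bin. Marker lists of other cells summed to between 0.821 UPM (platelets, GFPlow) and 3002 UPM (erythroid, GFPmed). Erythroid markers summed to 1399 and 1051 UPM in GFPlow and GFPhigh, and B cell markers to 224.2, 309.3 and 291.6 UPM in GFPlow, GFPmed and GFPhigh. Their part was not tested beyond leaving out cells with at least 2 UMIs of other lineages (44 GFPlow, 68 GFPmed and 47 GFPhigh cells). Cell barcodes shared by libraries numbered 33 (GFPlow and GFPmed), 35 (GFPlow and GFPhigh) and 29 (GFPmed and GFPhigh).

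The AP-1 transcripts of these Tregs were nearly all Jund and Junb. Jund was counted 858, 859 and 1100 times in GFPlow, GFPmed and GFPhigh, at 352 [329, 377], 342 [319.4, 366] and 485 [456, 514] UPM. Junb, with 320 UMIs in GFPmed and 343 in GFPhigh, was at 157.2 [141.9, 173.8], 127.4 [113.8, 142.1] and 151.1 [135.5, 167.9] UPM. Jund was thus higher in GFPhigh than in both other bins, while the value of Junb was lowest in GFPmed and nearly level between the outer bins. Jund took 66.8%, 70.9% and 73.9% of the UMIs of the 7 genes and Junb 29.8%, 26.4% and 23.1%. No single cell carried these counts: at most 2.5% of the Junb UMIs of a bin and 0.815% of the Jund UMIs came from 1 cell. Junb lies at chromosome 8, 84974484 to 84978718, minus strand, and Jund at chromosome 8, 70698949 to 70700616, plus strand (GENCODE M21 on GRCm38). Junb overlaps Prdx2 on the other strand, whose log2 ratio was 0.39 [0.11, 0.67] for GFPhigh over GFPlow and 0.34 [0.06, 0.61] for GFPmed over GFPlow. The strand rule of the counting is not given in the sources used here, so reads of the overlap cannot be told apart.

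The classical inducible members were scarce in every bin. Fos, which binds DNA as a pair with a Jun protein, was counted 5, 13 and 13 times (2.05, 5.17 and 5.73 UPM). Jun gave 19, 8 and 13 UMIs (7.80, 3.18 and 5.73 UPM) and Fosl2, a later Fos family member, 17, 8 and 14 UMIs (6.98, 3.18 and 6.17 UPM). Fosb was counted 3, 3 and 4 times and Atf3, a stress-induced partner of Jun, 0, 0 and 1 times, so no ratio is given for either. By UMIs, Jund ranked 358 and 339 among all genes of GFPlow and GFPmed, Junb 924 and 1108, and Fos 10228 and 9051. Jun and Jund overlap antisense genes in the annotation, as Atf3 overlaps a small RNA gene, and none of these partners is a row of the table.

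**Figure D1:**
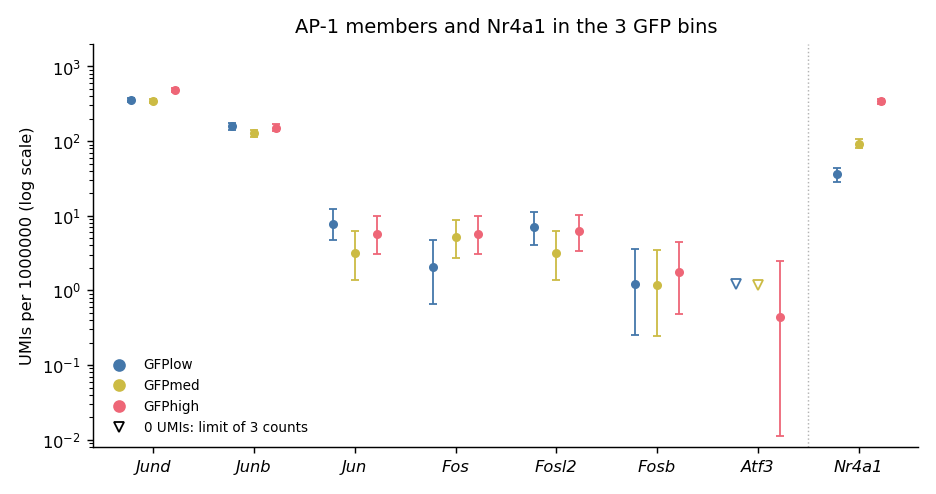
Level of each AP-1 member and of Nr4a1 (vertical axis, UPM, log scale) in GFPlow, GFPmed and GFPhigh, with 95% counting intervals; open triangles mark a count of 0 at its limit of 3 counts. Jund and Junb lie above 100 UPM in every bin, the other members lie below 10 UPM, and Nr4a1 goes from 35.7 to 340.5 UPM.

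The upstream sequences of Junb, Jund and Nr4a1 are shown because these 3 transcripts carry the results. Each is the 250 bases before the RefSeq start on GRCm38.p6, 5′ to 3′ on the gene's strand, at chr8:84978749-84978998 (minus strand), chr8:70697489-70697738 (plus strand) and chr15:101266596-101266845 (plus strand). Capitals mark TGACG or its reverse complement, the core of the site bound by CREB and ATF proteins.
Junb: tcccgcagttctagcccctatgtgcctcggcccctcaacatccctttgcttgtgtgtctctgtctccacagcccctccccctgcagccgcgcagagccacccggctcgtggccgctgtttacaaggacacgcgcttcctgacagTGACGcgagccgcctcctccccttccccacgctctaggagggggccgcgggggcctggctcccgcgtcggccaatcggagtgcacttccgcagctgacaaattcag
Jund: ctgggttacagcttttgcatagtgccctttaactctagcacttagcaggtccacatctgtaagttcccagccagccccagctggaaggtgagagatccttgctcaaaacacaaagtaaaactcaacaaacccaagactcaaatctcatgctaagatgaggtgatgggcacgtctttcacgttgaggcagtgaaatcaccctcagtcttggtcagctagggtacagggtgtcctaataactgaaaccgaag
Nr4a1: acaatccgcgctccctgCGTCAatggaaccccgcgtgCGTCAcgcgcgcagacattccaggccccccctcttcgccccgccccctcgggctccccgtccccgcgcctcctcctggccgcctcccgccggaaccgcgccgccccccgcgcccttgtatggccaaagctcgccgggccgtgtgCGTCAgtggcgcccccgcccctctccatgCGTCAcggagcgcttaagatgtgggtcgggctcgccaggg
Nr4a1 held 4 matches, Junb 1 and Jund none in these windows. The RefSeq start of Jund lies 1210 bases upstream of the GENCODE start, and that of Nr4a1 lies 12577 bases downstream of it, so the windows depend on the annotation. Of 32851 promoter windows of that length, 17.8% held TGACG on either strand. The longer sites TGANTCA (AP-1), TGACGTCA and AAAGGTCA and the CArG box, searched on both strands, had no match in the 3 windows, and 6.75%, 1.55%, 1.34% and 1.47% of all windows held them. TGACGTCA contains TGACG, and the other sites searched do not. All 7 members had a RefSeq window, and the Jun window held TGACATCA at -45 to -38 from the start, found in 2.93% of windows.

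Between bins, the ratios of Jund and Junb were far smaller than that of Nr4a1. Nr4a1 was at 35.7, 92.7 and 340.5 UPM, with 87 UMIs in GFPlow and 773 in GFPhigh, and GFPhigh over GFPlow had a log2 ratio of 3.25 [2.93, 3.59]. The log2 ratio of Jund was 0.46 [0.33, 0.59] for that pair, -0.04 [-0.18, 0.10] for the lower step (GFPmed over GFPlow) and 0.50 [0.37, 0.63] for the upper step (GFPhigh over GFPmed). Jund thus differed at the upper step of the reporter and not detectably at the lower one, where Nr4a1 already had a ratio of 1.37 [1.02, 1.75]. Junb had ratios of -0.06 [-0.27, 0.16], -0.30 [-0.52, -0.09] and 0.25 [0.02, 0.47] in the same order. Without cells of other lineages, Junb had -0.25 [-0.47, -0.03] at the lower step and 0.20 [-0.03, 0.43] at the upper one. The interval of the upper step also included 0 with TMM scaling (0.17 [-0.05, 0.40]), without ribosomal protein genes, with a minimum of 1000 UMIs per cell and after thinning. That of the lower step included 0 after thinning (-0.31 [-0.68, 0.06]) and in cells of 1000 to 2000 UMIs. In cells of 500 to 1000, 1000 to 2000 and at least 2000 UMIs, the ratio of Jund for GFPhigh over GFPlow was 0.55, 0.43 and 0.51, and that of Junb -0.02, 0.12 and -0.71 [-1.33, -0.07], the last on 59 UMIs in GFPhigh and 36 in GFPlow. The 7 genes summed to 528, 482 and 655 UPM from low to high GFP. For Fos the ratio of GFPhigh over GFPlow was 1.40 [-0.10, 3.32], for Fosl2 -0.17 [-1.31, 0.93] and for Jun -0.43 [-1.59, 0.65], all not detectable at this depth. Jun had -1.24 [-2.69, -0.03] for GFPmed over GFPlow, on 8 against 19 UMIs.

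A gene was counted as measured with at least 50 UMIs over the 3 bins, which 8633 genes and 2 members (Junb and Jund) met, and as called at 1.5-fold or more either way. Neither measured member was called in any of the 3 comparisons. Of all measured genes, 9.79% were higher and 6.49% lower in GFPhigh over GFPlow, 5.61% and 6.14% in GFPmed over GFPlow, and 8.53% and 4.51% in GFPhigh over GFPmed. The ratio of Jund for GFPhigh over GFPlow was above that of 85.6% of measured genes and that of Junb above 38.7%, against 99.9% for Nr4a1. The median of the 2 members was 0.20, beside 0.04 for all measured genes.

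**Figure D2:**
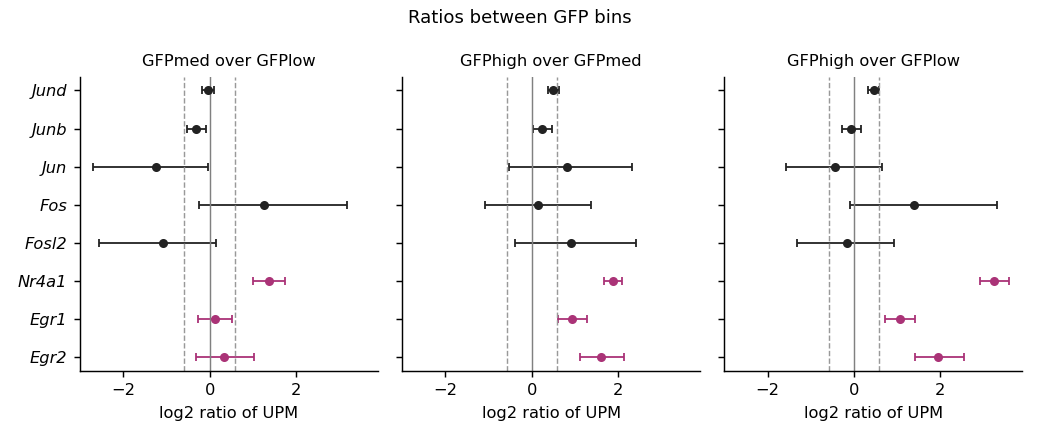
Log2 ratio of UPM (horizontal axis) for the 3 pairs of bins, with 95% counting intervals, for 5 AP-1 members (black) and for Nr4a1, Egr1 and Egr2 (purple); dashed lines mark 1.5-fold. Jund sits near 0.5 in both comparisons with GFPhigh and near 0 for GFPmed over GFPlow, while Nr4a1 is past 1.5-fold in all 3.

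The thinned share of cells with a UMI was also highest in GFPhigh for Jund and lowest in GFPmed for Junb. After each cell was thinned to 500 UMIs, Jund was found in 16.2% [14.6, 17.8], 15.5% [13.8, 17.5] and 21.3% [19.4, 23.3] of the cells from low to high GFP (exact Clopper-Pearson intervals). Junb was found in 7.21% [6.14, 8.39], 5.60% [4.50, 6.86] and 7.38% [6.21, 8.70]. Without thinning the shares were 30.1%, 38.1% and 39.9% for Jund and 13.9%, 15.2% and 14.3% for Junb, so that without thinning GFPmed, the bin with the deepest cells, was the highest for Junb. No cell type that should lack these genes served as a background. In 38 cells with at least 5 B cell marker UMIs (median depth 1249.5), the thinned share was 21.1% for Jund [9.55, 37.3] and 0 of 38 for Junb, which allows up to 7.89%. Thinned Fos shares were 0.141%, 0.130% and 0.113%, on 3, 2 and 2 cells. Without thinning they were 0.236%, 0.586% and 0.451%, so no direction between bins is read from them.

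Counts per cell were spread more evenly for the Jun genes than for Nr4a1. The Fano factor of thinned counts, the variance over the mean, was 1.06, 1.08 and 1.18 for Jund and 1.17, 1.32 and 1.15 for Junb in GFPlow, GFPmed and GFPhigh. For Nr4a1 it was 1.72, 2.07 and 4.98. Before thinning, a single cell held 8.05%, 12.4% and 6.99% of the Nr4a1 UMIs of the 3 bins. The intervals of Nr4a1, which treat UMIs as independent, are therefore too narrow. At 500 UMIs, 77.4% of the GFPlow cells and 79.4% of the GFPmed cells had no UMI of any of the 7 genes.

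Within a bin, which was 1 library, Junb went with Nr4a1 in GFPmed and GFPhigh. In GFPhigh, Junb was at 312 UPM (106 UMIs) in the cells with a Nr4a1 UMI, 13.9% of the bin, and at 122.8 UPM in the 1528 cells without, a log2 ratio of 1.35 [1.001, 1.68]. In GFPmed it was at 227.99 UPM in 109 cells and 118.4 UPM in 1428 cells, a ratio of 0.96 [0.47, 1.40]. In GFPlow, with 48 and 2075 cells, the levels were 165 and 157.03 UPM and the ratio 0.14 [-1.0003, 0.97], on 10 UMIs. Of 3687 genes with at least 300 UMIs, Junb ranked 12 by this ratio in GFPhigh, 66 in GFPmed and 1619 in GFPlow. Genes at least 1.5-fold higher in cells with a Nr4a1 UMI were 6.51%, 8.95% and 20.2% of them in GFPhigh, GFPmed and GFPlow.

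By value, Jund went the other way over the bins in the same cells. Its levels with and without a Nr4a1 UMI were 542 and 474 UPM in GFPhigh (log2 ratio 0.19 [-0.05, 0.42]), 437 and 333 UPM in GFPmed (0.40 [0.06, 0.71]) and 710 and 343 UPM in GFPlow (1.06 [0.57, 1.49]). By that ratio 5.51%, 17.6% and 30.4% of the 3687 genes were above Jund in GFPlow, GFPmed and GFPhigh, and 43.9%, 1.76% and 0.298% were above Junb. With the gate on thinned UMIs, Jund had 0.33 [0.04, 0.61] in GFPhigh, 0.49 [-0.07, 0.98] in GFPmed and 0.91 [0.23, 1.47] in GFPlow. Whether the Jund interval included 0 in GFPhigh and GFPmed thus depended on the gate. Cells with 2 or more Nr4a1 UMIs numbered 38 in GFPmed and 20 in GFPlow, with more in GFPhigh. Junb in these cells was at 402 [309.1, 515] UPM in GFPhigh, 347 [227, 509] in GFPmed and 252 [92.6, 549] in GFPlow. Median depth was 1285 UMIs with and 1101.5 without a Nr4a1 UMI in GFPhigh, and 1764 and 1532 in GFPmed.

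The difference in Jund between bins was also present in cells without any Nr4a1 UMI. Among the cells without a Nr4a1 UMI, Jund was at 343 UPM in GFPlow and 474 UPM in GFPhigh, a log2 ratio of 0.47 [0.33, 0.61]. Junb in the same cells was lower in GFPhigh (122.8 UPM) than in GFPlow (157.03 UPM), with a ratio of -0.35 [-0.60, -0.12]. Among cells with a Nr4a1 UMI the ratios were -0.40 [-0.88, 0.12] for Jund and 0.85 [-0.02, 2.02] for Junb. By value, Junb was thus lower in GFPhigh in the cells without a Nr4a1 UMI and higher in the cells with one. The interval of the latter included 0, on 10 UMIs in GFPlow. Over all cells the ratio of Junb was -0.06 [-0.27, 0.16].

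**Figure D3:**
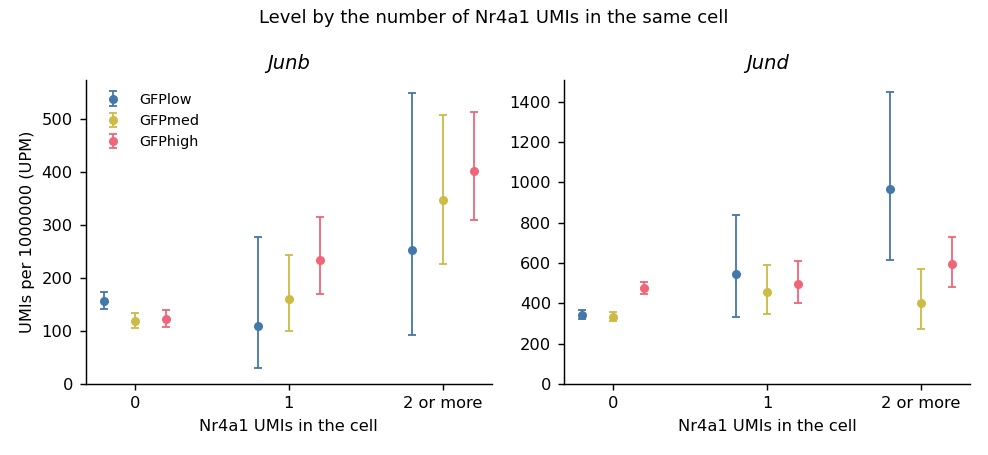
Level of Junb (left) and Jund (right) in UPM (vertical axes, from 0) by the number of Nr4a1 UMIs in the same cell (horizontal axis), with 95% counting intervals. In GFPhigh Junb goes from 122.8 UPM without a Nr4a1 UMI to 402 UPM with 2 or more, while Jund goes from 474 to 594 UPM.

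By value, the scarce Fos and Fosl2 transcripts were more frequent in the cells with Nr4a1 transcripts. Such cells made up 2.26%, 7.09% and 13.9% of the 3 bins. They held 2 of the 5 Fos UMIs of GFPlow, 6 of 13 in GFPmed and 8 of 13 in GFPhigh, at log2 ratios of 4.81 [1.13, 7.83] in GFPlow, 3.28 [1.41, 5.06] in GFPmed and 3.13 [1.39, 5.14] in GFPhigh. Of the Fosl2 UMIs they held 2 of 17, 3 of 8 and 11 of 14, at ratios of 2.66 [-0.79, 4.49], 2.83 [0.06, 5.11] and 4.22 [2.46, 6.86]. Of the Jun UMIs they held 0 of 19 and 0 of 8 in GFPlow and GFPmed and 4 of 13 in GFPhigh. The upper limits of the Jun ratio were 3.07 in GFPlow and 2.71 in GFPmed, and the GFPhigh ratio was 1.43 [-0.82, 3.18]. These overlap the intervals of Fos and Fosl2, which is no test of a difference, and a difference of Jun from them was not tested. These counts come from few cells, such as 4 cells for the 8 Fos UMIs in GFPhigh, so the intervals, which treat UMIs as independent, are too narrow. The early factors Egr1 and Egr2 had log2 ratios of 3.09 [2.68, 3.52] and 4.26 [3.67, 4.93] in GFPhigh for the same contrast.

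Seen from Junb, some other early response transcripts were also higher in its cells. This comparison was added after the data were seen, because a thinned Fos UMI was found in only 3 GFPlow, 2 GFPmed and 2 GFPhigh cells. Genes that ranked highest with Fos would rest on those cells and are not given. In the cells with a thinned Junb UMI, 7.21%, 5.60% and 7.38% of the 3 bins, the highest of 3687 genes by the lowest ratio of the 3 bins were Cd83, Nr4a1, Nfkbid and Egr1. Cd83, an activation marker, had log2 ratios of 1.48 [0.34, 2.38], 2.01 [1.13, 2.75] and 1.09 [0.50, 1.61] in GFPlow, GFPmed and GFPhigh. Nr4a1 had 1.04 [-0.02, 1.88], 1.14 [0.46, 1.72] and 1.92 [1.66, 2.16]. Egr1 had 0.88 [-0.13, 1.68], 2.17 [1.42, 2.81] and 2.07 [1.56, 2.53]. Nfkbid, an inhibitor-like partner of NF-kappa-B, had 1.07 [-0.20, 2.03], 0.99 [-0.18, 1.87] and 2.08 [1.498, 2.60]. This ranking and these intervals rest on 1 random thinning. With the gate drawn from a second thinning, Nr4a1 had -0.31 in GFPlow and 2.52 in GFPmed, and Cd83 had 0.48 [-1.13, 1.59] in GFPlow. Without cells of other lineages, Cd83 had 0.65 and Nfkbid 0.07 in GFPlow. With the gate on all UMIs, Cd83 had 0.53 [-0.25, 1.22] in GFPmed. In GFPhigh the intervals of these 4 genes were above 0 under all 3 of these alternatives.

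The other genes of the top 10 were Nae1, Cd274, Ptger4, D17Wsu92e, Fip1l1 and Malt1. In GFPlow, GFPmed and GFPhigh, 8.46%, 14.6% and 11.1% of the 3687 genes were at least 1.5-fold higher with Junb and 3.5%, 3.8% and 3.47% with Jund. In all 3 bins together this held for 13 genes (0.353%) with Junb and for 0 genes (0%) with Jund. Junb and Jund were found in the same cells about as often as the product of their shares gives: 27 cells against 24.7 in GFPlow, 12 against 13.4 in GFPmed and 28 against 27.9 in GFPhigh. Junb and Nr4a1 were found together in 30 GFPhigh cells against 11.1, in 8 GFPmed cells against 2.57 and in 1 GFPlow cell against 2.16.

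Junb was also higher in Tregs with effector transcripts, while the intervals for Jund included 0. Cells with at least 2 thinned UMIs of S100a4, S100a6, Lgals1, Itgb1, Ccr2, Il1rl1, Klrg1 and Itgae were put in an effector gate, and other cells with a UMI of Igfbp4, Ly6c1, Ccr7, Satb1 or Dapl1 in a central gate. Junb was at 215 UPM in effector and 113.6 UPM in central cells of GFPlow, at 223.6 and 125.7 UPM in GFPmed and at 277.7 and 116.6 UPM in GFPhigh. The log2 ratios of Junb were 0.92 [0.49, 1.36], 0.84 [0.29, 1.34] and 1.27 [0.61, 1.85]. With the gates drawn on all UMIs in place of thinned ones, the ratio of Junb in GFPmed was 0.38 [-0.03, 0.76], and among cells of 1000 to 2000 UMIs it was 0.72 [-0.12, 1.43]. The log2 ratios of Jund were -0.02 [-0.33, 0.27], -0.09 [-0.54, 0.31] and -0.03 [-0.51, 0.39].

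The share of cells in the effector gate was 16.2%, 7.74% and 4.85% from low to high GFP. Inside the central gate, Jund was at 354.2, 328.03 and 443.4 UPM in the 3 bins, and GFPhigh over GFPlow had a log2 ratio of 0.32 [0.10, 0.55]. Outside both gates the ratio was 0.54 [0.36, 0.72], and in the effector gate 0.32 [-0.20, 0.79], with 48 UMIs in GFPhigh. Junb had 0.04 [-0.39, 0.46], -0.10 [-0.38, 0.19] and 0.38 [-0.28, 0.98] in the same order of gates. The difference in Jund was thus seen both in central cells and in cells outside both gates, with intervals that overlap.

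**Figure D4:**
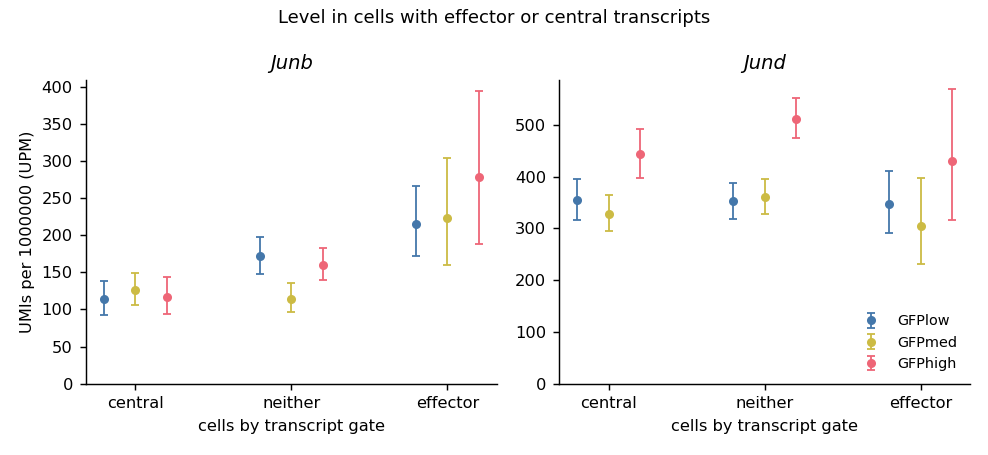
Level of Junb (left) and Jund (right) in UPM (vertical axes, from 0) in cells of the central gate, of neither gate and of the effector gate (horizontal axis), by bin, with 95% counting intervals. Junb is 113.6 to 125.7 UPM in central and 215 to 277.7 UPM in effector cells, while Jund is highest in GFPhigh under each gate.

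The handling and stress genes split in both directions between bins. Of its 32 genes 26 were measured, of which 6 were called higher and 4 lower in GFPhigh over GFPlow (background 9.79% and 6.49%), with a median log2 ratio of 0.09. Dusp1, a MAP kinase phosphatase, was at 15.2, 15.5 and 32.2 UPM in GFPlow, GFPmed and GFPhigh, a ratio of 1.07 [0.49, 1.69]. Gadd45b had 1.06 [0.51, 1.65] and Nfkbiz 0.96 [0.51, 1.44]. Socs3, a feedback inhibitor of cytokine signals, had -0.91 [-1.12, -0.71]. In cells with a Nr4a1 UMI over cells without, 20 handling genes with 300 UMIs had medians of 0.05, 0.12 and 0.10 in GFPlow, GFPmed and GFPhigh, beside 0.04, 0.02 and 0.01 for all 3687 genes. Of these 20 genes, 6, 2 and 5 were at least 1.5-fold higher with Nr4a1 in GFPlow, GFPmed and GFPhigh (background 20.2%, 8.95% and 6.51%). Ier2 and Zfp36, early genes of that list, were chosen here after their values were seen. Ier2 had 1.08 [0.32, 1.69], 0.70 [0.20, 1.15] and 1.07 [0.69, 1.44] in GFPlow, GFPmed and GFPhigh. Zfp36 had 1.28 [0.71, 1.76], 1.43 [1.06, 1.77] and 0.89 [0.55, 1.22], beside 0.14, 0.96 and 1.35 for Junb. Both were thus above Junb in GFPlow and below it in GFPhigh by value, and Zfp36 was above it in GFPmed. With Junb, the same 20 genes had medians of 0.04, 0.07 and 0.14. The part of handling in the AP-1 values was not tested beyond these numbers.

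Other genes of the pathway had list medians near 0. Of 24 further leucine zipper factors 16 were measured, with a median of -0.02 for GFPhigh over GFPlow. Of these 2 were called higher (Bach2 and Crem) and 3 lower (Maf, Mafg and Cebpb), beside a background of 9.79% and 6.49%. Bach2, a repressor that competes with AP-1, was at 91.96, 114.2 and 170.5 UPM, a ratio of 0.89 [0.65, 1.13]. Maf was at 270.1, 107.9 and 127.7 UPM, a ratio of -1.08 [-1.28, -0.88]. Cebpb had -0.66 [-1.20, -0.15] and Crem, a cAMP-responsive factor, 0.62 [0.05, 1.23]. Batf, the Jun partner of lymphocytes, chosen here after its values were seen, was at 29.1, 29.9 and 37.9 UPM, with 0.38 [-0.09, 0.85]. Fosl1 and Batf2 had 0 UMIs in every bin.

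Of 23 genes of the MAP kinase route to AP-1, 22 were measured, with a median of -0.04 for GFPhigh over GFPlow. Of these 2 were called higher and 1 lower, near the background of 9.79% and 6.49%. Elk3, an ETS factor that acts at serum response elements, had 1.06 [0.75, 1.38] and Mapk8, which encodes the Jun kinase JNK1, 0.79 [0.28, 1.32]. Map3k7 had -0.44 [-0.83, -0.06] and Map2k3 0.42 [0.02, 0.82], and Map2k6 was the gene called lower. The 4 NFAT genes split, with Nfatc1 at 0.72 [0.48, 0.97], Nfatc2 at -0.66 [-1.002, -0.33], Nfat5 at 0.41 [0.02, 0.81] and Nfatc3 at -0.27 [-0.44, -0.10].

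Most measured genes of the TCR-induced lists were higher in GFPhigh. These lists were chosen with earlier results of these data known, so their counts are a description and no independent result. All 3 measured genes of the Nr4a and Egr list were called higher over GFPlow (background 9.79%), with Egr1 at 1.06 [0.72, 1.42] and Egr2 at 1.96 [1.42, 2.56]. Egr3 and Nr4a3 had 0 UMIs in every bin. Of 16 measured TCR response genes 13 were called higher and 0 lower (background 9.79% and 6.49%), with a median of 0.80. They were led by Tnfrsf9 at 3.71 [3.31, 4.17], Pdcd1 at 2.20 [1.60, 2.88], Cd83 at 2.03 [1.63, 2.47] and Tnfrsf4 at 1.63 [1.43, 1.84]. Since the sort was on an Nr4a1 reporter, Nr4a1 describes the sort and is no independent result. These 4 were named for the size of their ratios, so the ratios of Jund (0.46) and Junb (-0.06) are not ranked against them.

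**Figure D5:**
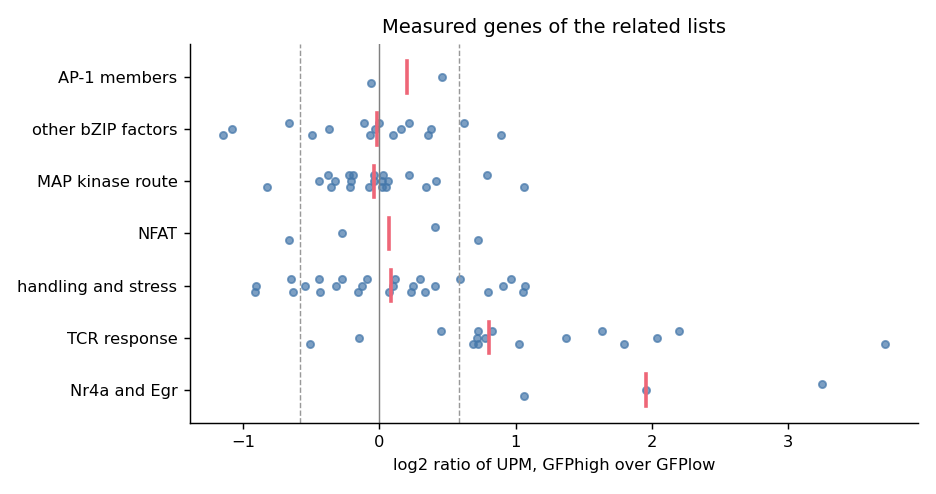
Log2 ratio of GFPhigh over GFPlow (horizontal axis) for the measured genes of 7 lists (rows), with 1 point per gene, red bars at the list medians and dashed lines at 1.5-fold. The medians of the AP-1, other bZIP, MAP kinase, NFAT and handling lists lie between -0.04 and 0.20, and those of the TCR response and the Nr4a and Egr lists at 0.80 and 1.96.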

How the data were processed

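Regulatory T cells of 3 GFP bins were measured by single-cell RNA sequencing, with 1 library per bin. The authors deposited raw UMI counts per gene and cell, checked here to be whole numbers of at least 0. TopHat2, SAMtools and the mm10 genome are named in the submitters' processing notes. Their versions, the annotation, the counting program and its strand rule are not given in the sources used here. All 6106 columns matched a labelled cell, and 96.2% of the symbols are in GENCODE M21. The members and lists were chosen with earlier results of these data known.

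Cells under 500 UMIs were left out (249 GFPlow, 145 GFPmed and 277 GFPhigh cells), doublets were not removed, and UMIs were summed per bin or gate, which left 2435870, 2512277 and 2270376 UMIs. Log2 ratios had 0.5 UMI added to each count. Intervals at 95% are exact Poisson (levels), exact conditional binomial (ratios) or Clopper-Pearson (shares), and a count of 0 was given 3 counts as its limit. Thinning to 500 UMIs was without replacement. A called gene had at least 50 UMIs over the bins and a ratio of 1.5-fold. Besides the members and Nr4a1, up to 4 genes a list were named, by the size of the log2 ratio between the outer bins among genes with at least 100 UMIs, and all measured Nr4a and Egr genes. The genes most like Fos, and 1 gene first placed in the central gate, are not reported here, and the gate was redrawn with the other 5 genes after its results had been seen. The most abundant genes of the other marker lists were Cd74 (B cells), Ctss (myeloid cells), Hba-a2 (erythroid cells), Cd8b1 (CD8 T or NK cells), Xbp1 or Jchain (plasma cells), and Pf4 or Itga2b (platelets). The ratio and thinning code was tested on simulated data. Software was Python 3.11.15, numpy 2.4.6, scipy 1.17.1 and edgeR 4.0.16, used only for TMM factors. Alternatives covered scaling, cell filters, gates and thinning.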

Additional observations from a re-analysis of the deposited data

Results flagged for a closer look

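The cells under 500 UMIs, which no comparison used, also held Jund and Junb above the limit that a count of 0 allows (29.4, 55.6 and 26.3 UPM in GFPlow, GFPmed and GFPhigh). Jund was at 392 UPM in 249 GFPlow cells, 519 UPM in GFPmed and 430 UPM in 277 GFPhigh cells. Junb was at 147.1 UPM in GFPlow, 148.3 UPM in GFPmed and 220 UPM in GFPhigh. The intervals of each gene overlapped between the 3 bins, such as 280 to 534 UPM and 318 to 569 UPM for Jund in GFPlow and GFPhigh.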

How the results depend on the processing

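No paired analysis was possible because each bin is 1 library, and no replicate number pairs the bins. Each ratio of Jund, Junb, Nr4a1 and the AP-1 sum between bins was recomputed under 12 alternatives, 1 of them (cells of 1000 to 2000 UMIs) chosen after seeing the data, and stayed within its counting interval. Over these, Jund lay between 0.41 and 0.52 for GFPhigh over GFPlow and Junb between -0.11 and 0.12, and no measured member passed 1.5-fold. The alternatives reused UMIs of the main setting. Cells of at least 2000 UMIs alone were not among them, and there Junb had -0.71 [-1.33, -0.07], past 1.5-fold and outside its main interval. The 5 alternative effector and central gates were also chosen after seeing the data, and left Junb between 0.38 (GFPmed, gates on all UMIs) and 1.73 (GFPhigh).

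The contrast of cells with and without a Nr4a1 UMI depended on the gate. With 2 or more Nr4a1 UMIs against 0, chosen after seeing the data, the AP-1 sum had 1.49 in GFPlow, 0.97 in GFPmed and 0.92 in GFPhigh, Jund 1.52 in GFPlow, and Junb 1.58 in GFPmed and 1.72 in GFPhigh. With the gate on thinned UMIs, the AP-1 sum had 1.06 in GFPmed and 0.85 in GFPhigh, and Junb 1.65 in GFPmed. The cause was not tested. Junb in GFPlow ranged from -0.76 to 0.80. The Nr4a1 ratio with Junb in GFPlow was -0.31 under another thinning and -0.054 without cells of other lineages. The planned ratios of Jun and Junb in cells with a thinned Fos UMI rest on 3 GFPlow, 2 GFPmed and 2 GFPhigh cells and are not reported here. Between bins, depth limits Fos, Fosb, Fosl2, Jun and Atf3 to statements on their low level. The ratios of Fos, Fosl2 and Jun with Nr4a1 rest on few cells.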

Other observations

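The 10 genes highest with Jund by the lowest ratio of the 3 bins, a comparison added after seeing the data, were P4ha1, Penk, Egln2, Smim7, Erp44, Rilpl2, Serpina3g, Bcl3, Hif1a and Galnt6. The ranking rests on 1 random thinning. P4ha1, a collagen prolyl hydroxylase subunit, had log2 ratios of 0.54 [-0.07, 1.09], 0.64 [-0.14, 1.31] and 0.96 [0.31, 1.57] in GFPlow, GFPmed and GFPhigh between cells with and without a thinned Jund UMI. Penk, which encodes proenkephalin, had 1.43, 0.52 and 1.40, Egln2, an oxygen-sensing prolyl hydroxylase, 0.84, 0.51 and 0.85, and Hif1a, the hypoxia-inducible factor subunit, 0.37, 0.52 and 0.77. Bcl3, a nuclear partner of NF-kappa-B, had 0.86 [0.08, 1.54], 0.48 [-0.23, 1.10] and 0.37 [-0.18, 0.88]. None of the 10 reached 1.5-fold in all 3 bins. Nr4a1 ranked 39 and Egr1 76 of 3687 by the same measure.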
